A study of Mus musculus with 6 samples.

Results

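The genes described here encode 10 cell surface proteins by which breast and mammary cancer stem cells are commonly recognised or sorted: Cd44, Cd24a, Epcam, Prom1, Procr, Ly6a, Thy1, Tspan8, Cd9 and Cd151. They were chosen by name, with earlier results of these data known, and all 10 were found among the 49523 gene symbols of the deposited table. Of the 10, 8 passed the filter on low counts, as did 17630 genes of the whole table. RNA was sequenced from EO771 cells, a mouse mammary carcinoma line, in 3 libraries labelled as cancer stem cells (CSC) and 3 labelled as other cells (non-CSC). The labels name no genotype, treatment, time or animal age for either group, and how the CSC were separated is left unsaid. Both groups thus share the line and, per the labels, Trizol extraction and 1.3 ug of input RNA, and a cell line is a single tumour's descendants. Whether the replicates were separate cultures is not stated, so the p-values reflect nothing beyond the spread among these libraries, which may be technical. It is also not stated whether any of the 10 proteins was used to separate the groups, and a gene so used would differ by selection.

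CD44 binds hyaluronan in the matrix, and cells with much CD44 and little CD24 on their surface are the classic breast cancer stem cell fraction. EpCAM is an adhesion protein of epithelial cells. CD24, Sca-1 (the product of Ly6a) and Thy-1 are small glycoproteins held in the membrane by a glycosylphosphatidylinositol (GPI) anchor. CD133, the product of Prom1, spans the membrane several times and marks stem cells in many tissues, and the protein C receptor (Procr) and TSPAN8 have been used to find mouse mammary stem cells. TSPAN8, CD9 and CD151 are tetraspanins, which gather integrins and other partners into membrane domains.

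Libraries held 27099879 to 35971131 counts, and the biological coefficient of variation common to all genes was 4.11%. Keratin genes of simple epithelium were abundant in both groups. Krt18 averaged 1255 CPM (counts scaled to library size) in non-CSC and 1267 CPM in CSC, whereas the E-cadherin gene Cdh1 averaged 0.952 and 0.752 CPM, and Pgr and Esrp1 were under 0.1 CPM. Lists of other cell types were checked beside the surface markers. The 13 leukocyte markers summed to 48.1 to 51.2 CPM in non-CSC libraries and 66.6 to 68.6 CPM in CSC libraries, and 4 of them were at 0 in every library, namely Cd3e, Adgre1, Tyrobp and Itgax. The 10 endothelial markers summed to 87.7 to 92.7 and 84.8 to 87.3 CPM, most of it from Esam, with Tek and Emcn at 0 throughout. The 11 fibroblast markers summed to 555 to 590 and 1196 to 1243 CPM. Dcn, which encodes the matrix proteoglycan decorin, made up nearly all of that sum, while Lum was at 0 in every library and Col1a2 averaged 0.00943 CPM in non-CSC and 0 in CSC. The part of these markers in the results below was not tested. Genes named in this paragraph were chosen after their values were seen, apart from Esam and Dcn.

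The surface marker genes spanned the whole range of expression in these cells. Levels were compared between genes per kilobase of annotated exon (RPKM, from CPM and the exon bases of GENCODE M21). Ly6a was the highest of the 10, at 339 ± 8.09 RPKM in non-CSC and 369 ± 20.9 RPKM in CSC (SD, n = 3 each), above 99.3% and 99.5% of the tested genes with a known length. In non-CSC it was followed by Cd9 at 167 ± 7.98, Tspan8 at 105 ± 1.09, Cd44 at 102 ± 1.49, Cd151 at 80.5 ± 0.815, Procr at 66.3 ± 4.39 and Cd24a at 51.3 ± 1.11 RPKM. Tspan8 and Cd44 were close in level, but the lowest Tspan8 library, at 103.6 RPKM, was above the highest Cd44 library, at 103.0. In CSC the order was Cd9 at 244 ± 7.82, Tspan8 at 232 ± 1.01, Cd44 at 114 ± 2.94, Cd24a at 72.6 ± 1.35, Cd151 at 70.1 ± 1.25 and Procr at 56.7 ± 2.00 RPKM. Cd24a thus moved above Cd151 and Procr, although its lowest CSC library, at 71.0 RPKM, was just above the highest Cd151 library, at 70.9. Epcam was below these 7 genes in every library, at 9.70 ± 0.294 and 4.67 ± 0.0875 RPKM. Prom1 was barely detected and Thy1 had no count in any library.

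**Figure D1:**
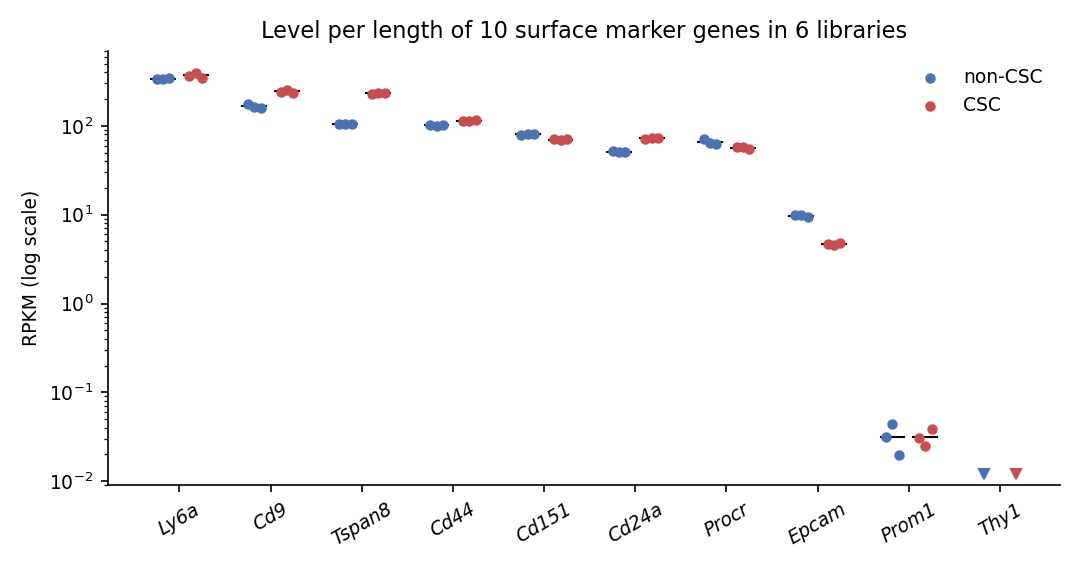
Level per length (RPKM, log scale) of the 10 surface marker genes in each of the 3 non-CSC (blue) and 3 CSC (red) libraries, with a bar at each group's mean; the triangles at the lower edge stand for Thy1, which had 0 counts in all 6 libraries. Of the 10 genes, 7 lie between 50.6 and 390 RPKM in every library, with Epcam below them and Prom1 near 0.

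All 8 tested genes differed between the groups, 5 higher and 3 lower in CSC, by edgeR's quasi-likelihood test with Benjamini-Hochberg adjustment over all 17630 genes and a threshold of 0.05. Such calls were common in this comparison: 66.5% of all genes tested passed, 33.4% higher and 33.1% lower. Among the 9631 genes with a mean of at least 10 CPM, a level that all 8 reached, 76.5% passed, 32.3% higher and 44.1% lower. CPM values of the groups did not overlap for the 8 genes, which was also the case for 69.3% of all genes tested, 35.0% with CSC higher and 34.3% with CSC lower. The count of calls therefore says little about these markers, and the sizes of their changes are given beside those of all genes. The median log2 fold change of the 8 was 0.15, against 0.01 for all genes tested, and the median size of change was 0.36, against 0.33 for all genes tested and 0.27 for those with a mean of at least 10 CPM. Only Tspan8 rose by at least 2-fold and only Epcam fell by at least 2-fold, and 8.01% and 4.09% of all tested genes were called with a rise or a fall of that size. Because these are bulk libraries, fewer cells carrying a transcript and less of that transcript in each cell cannot be told apart, and the protein at the surface was not measured.

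**Figure D2:**
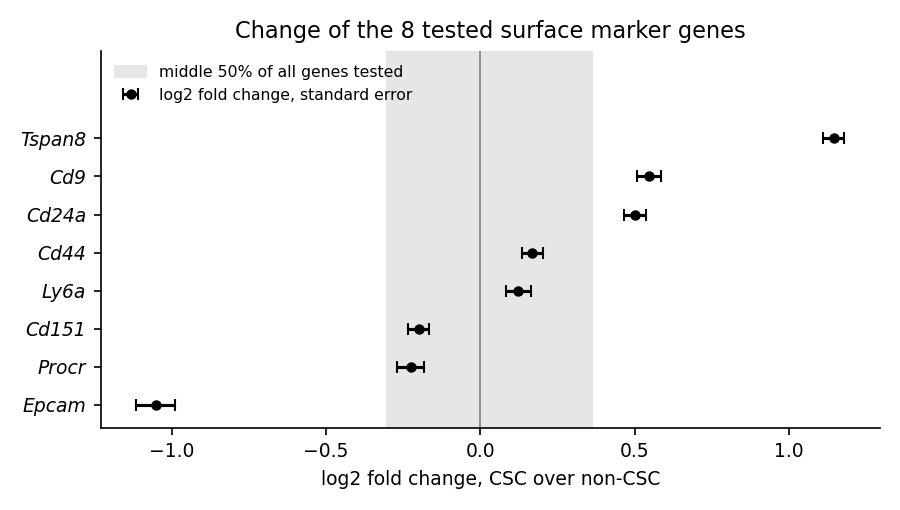
Log2 fold change of CSC over non-CSC for the 8 tested genes (points, with the standard error of the edgeR fit), beside the middle 50% of the log2 fold changes of all 17630 genes tested (grey band). Tspan8, Cd9, Cd24a and Epcam lie outside the band, and Cd44, Ly6a, Cd151 and Procr inside it.

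Cd44, which encodes the hyaluronan receptor, was slightly higher in CSC. On GRCm38 the gene spans 102811141 to 102901665 of chromosome 2, minus strand. Its level was 698, 678 and 690 CPM across the non-CSC replicates and 759, 766 and 796 CPM across the CSC replicates. Every CSC library was above every non-CSC library, but the step between the groups was small beside the level. The means were 689 ± 10.1 and 774 ± 19.9 CPM (SD, n = 3 each), a 1.12-fold difference with a log2 fold change of 0.17 ± 0.034 (SE; edgeR adjusted p = 0.000153), and 72.4% of all tested genes changed by more. These are counts for the whole gene, so the standard and variant-exon forms of CD44 were not resolved.

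Genes around CD44 moved in both directions, as did all genes tested, of which 33.4% were called higher and 33.1% lower. Of 28 listed genes of hyaluronan turnover, other hyaluronan-binding proteins and CD44 partners, 22 were tested, with 7 higher, 7 lower, 8 not past the threshold and a median log2 value of -0.01. Srgn, which encodes the proteoglycan serglycin, fell from 59.9 ± 3.31 to 8.49 ± 0.50 CPM (SD, n = 3 each). Its libraries read 56.9, 63.5 and 59.3 CPM in non-CSC and 7.91, 8.77 and 8.79 CPM in CSC. Stab1, which encodes the scavenger receptor stabilin-1, rose from 5.84 to 27.8 CPM, and Cd74, the invariant chain, from 1.02 to 9.08 CPM. Mmp14, a membrane-bound matrix metalloprotease, fell from 459 to 322 CPM. The genes of the proteins that link CD44 to actin were all lower, Ezr by 0.21, Rdx by 0.36 and Msn by 0.30 in size of log2 fold change, and the hyaluronan-cleaving gene Cemip rose from 1.03 to 7.81 CPM; these 4 were chosen after their values were seen. Hyaluronan synthase genes were low, with Has1 at 11.4 and 12.8 CPM, Has3 at 3.47 and 5.59 CPM and Has2 under 0.1 CPM. Of the 2 epithelial splicing factors known to favour the variant forms of CD44, Esrp1 had 0 CPM in non-CSC and 0.0115 CPM in CSC, and Esrp2 had 36.4 and 35.7 CPM, a log2 fold change of -0.03 ± 0.054 (SE; edgeR adjusted p = 0.7). The synthase and splicing factor genes were chosen after their values were seen.

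Epcam was lower in CSC by about the size by which Tspan8 was higher. On GRCm38 the gene spans 87635979 to 87651129 of chromosome 17, plus strand. It read 21.7, 21.6 and 20.5 CPM across non-CSC replicates and 10.3, 10.04 and 10.4 CPM across CSC replicates, from 682, 748 and 726 counts and from 284, 284 and 302 counts. The groups lay far apart beside their own spread. The fall was 2.08-fold, with a log2 fold change of -1.05 ± 0.063 (SE; edgeR adjusted p = 7.38e-13), and 11.2% of tested genes changed by more. Other epithelial genes went both ways. Among the keratins, Krt7 rose from 502 ± 9.17 to 1057 ± 19.7 CPM (SD, n = 3 each). Krt8 rose from 715 to 863 CPM. The basal keratin gene Krt14 rose from 224 to 259 CPM, and the epithelial transcription factor gene Ehf from 54.2 to 97.5 CPM. Over the 15 epithelial genes listed, 13 were tested, 8 higher and 3 lower, with a median of 0.16. Of all genes tested, 33.4% were called higher and 33.1% lower. The 3 lower ones, chosen after their values were seen, were the claudin gene Cldn4, from 5.66 to 1.34 CPM, the epithelial transcription factor gene Grhl2, from 4.15 to 1.47 CPM, and the basal keratin gene Krt5, from 3.64 to 1.01 CPM. Each fell by at least 2-fold, as Epcam did, but from a low level.

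The 250 bases before the RefSeq transcription start of Epcam and of Tspan8, the genes with the largest fall and the largest rise of the 10, are shown because their changes were the only ones of at least 2-fold. They come from RefSeq on GRCm38.p6, both on the plus strand and written 5′ to 3′, at chr17:87635729-87635978 for Epcam and at chr10:115817034-115817283 for Tspan8. The RefSeq start of Tspan8 lies downstream of the GENCODE start, so its window falls inside the span that GENCODE M21 gives the gene, whereas that of Epcam ends just before the gene in both. Capitals mark matches on either strand to 5 short motifs. These were the core promoter element TATAAA, the promoter box with the letters CCAAT, the box GGGCGG bound by factors of the Sp family, the motif of the AP-1 factors with the letters TGANTCA, and the E-box form CAGGTG known to be bound by Snail and ZEB factors.
Epcam: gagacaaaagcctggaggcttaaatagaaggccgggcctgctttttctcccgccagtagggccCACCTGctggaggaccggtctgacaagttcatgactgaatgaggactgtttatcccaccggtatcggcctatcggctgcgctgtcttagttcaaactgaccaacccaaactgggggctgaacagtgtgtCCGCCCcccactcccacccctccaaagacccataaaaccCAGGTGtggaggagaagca
Tspan8: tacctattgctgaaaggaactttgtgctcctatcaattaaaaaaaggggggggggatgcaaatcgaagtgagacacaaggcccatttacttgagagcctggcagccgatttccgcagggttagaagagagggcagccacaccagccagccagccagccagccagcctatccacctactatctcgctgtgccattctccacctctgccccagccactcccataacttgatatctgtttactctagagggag
The Epcam window held 2 matches to CAGGTG and 1 to GGGCGG, and the Tspan8 window held none of the 5 motifs. Of the 32851 windows in the table, 17.2% held this E-box form and 32.7% the Sp box, while 33.8% held the second motif of those named, 12.4% the core promoter element and 6.75% the AP-1 motif. The Epcam window held 8 CpG and the Tspan8 window 4, against a median of 6. A match is a description of letters, and none of these windows was assayed here. Windows were found for 7 of the 10 genes, the others being Cd24a, Ly6a and Thy1. No motif was shared by the windows of the genes that rose: the Cd44 window also held none of the 5, whereas that of Cd9 held 2 matches to GGGCGG and 1 to CAGGTG.

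Genes that act with EpCAM were in part near the floor, and the others went both ways. Of 19 listed relatives, membrane partners and cleaving enzymes, 7 were under 1 CPM in every library. In all, 14 were tested, 5 higher, 3 lower and 6 not past the threshold, with a median of -0.01. Their median size of change was 0.30, against 0.33 for all genes tested, of which 33.4% were called higher and 33.1% lower. The count of 5 higher became 3 without CSC replicate 2 and likewise without CSC replicate 3. The gene of the claudin partner Cldn7 averaged 0.223 and 0.424 CPM, with an edgeR adjusted p = 0.0411. Among the enzymes, Ncstn, which encodes the gamma-secretase subunit nicastrin, rose from 129 ± 5.32 to 216 ± 0.552 CPM (SD, n = 3 each). The beta-secretase gene Bace1 rose from 34.3 to 61.5 CPM. Fhl2, which encodes a partner of the released EpCAM tail, fell from 9.45 to 2.42 CPM. Cldn7 was chosen after its values were seen.

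Of the GPI-anchored markers, Cd24a was clearly higher in CSC, Ly6a marginally so, and Thy1 was not detected. Cd24a, on chromosome 10 at 43578284 to 43584265, read 136, 131 and 130 CPM in non-CSC and 183, 189 and 190 CPM in CSC. The lowest CSC library was well above the highest non-CSC library. The means of 132 ± 2.86 and 187 ± 3.47 CPM (SD, n = 3 each) differed 1.41-fold, with a log2 fold change of 0.50 ± 0.036 (SE; edgeR adjusted p = 1.88e-11). Of its longest transcript's 50-base words 3.90% also occur in the related sequence Gm6212, which was itself given 1 to 5 counts per library.

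Ly6a, on chromosome 15 at 74994877 to 74998031 (minus strand), read 401, 404 and 419.3 CPM in non-CSC and 444, 470 and 419.6 CPM in CSC. The groups all but touched, since the highest non-CSC library and CSC replicate 3 differed by less than 1 CPM. The log2 fold change was 0.12 ± 0.040 (SE; edgeR adjusted p = 0.00952). Without CSC replicate 2 it was 0.08 and no longer passed (edgeR adjusted p = 0.118), and with plain library sizes as the scaling it was 0.19. In all, 10% of its 50-base words are shared with neighbouring Ly6 genes, foremost Ly6c1 with 4.42%, so the split of reads between them is uncertain.

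Thy1, on chromosome 9 at 44043384 to 44048579, had 0 counts in all 6 libraries. A count of 0 allows up to 3 counts, which is 0.0849 to 0.109 CPM depending on the library and covers counting error only. At this depth Thy1 was not detectable in either group.

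Other genes of the Ly6 and uPAR family, to which Sca-1 belongs, included 15 tested of 34 listed, with 7 higher, 2 lower and 6 not past the threshold. The median log2 fold change was 0.33. Of all genes tested, 66.5% passed, 33.4% higher and 33.1% lower, with a median of 0.01. The count of 2 lower became 1 with upper-quartile or plain library-size scaling. Ly6c1, which lies beside Ly6a, averaged 124 ± 4.02 CPM in non-CSC and rose to 175 ± 3.97 CPM (SD, n = 3 each). Ly6g, best known from neutrophils, rose from 2.20 to 9.02 CPM, and Lypd1 from 17.0 to 22.1 CPM. Plaur, which encodes the urokinase receptor, fell from 273 ± 8.11 to 111 ± 3.57 CPM (SD, n = 3 each), with a log2 value of -1.30 ± 0.038 (SE; edgeR adjusted p = 1.45e-18). Its libraries read 278, 277 and 264 CPM in non-CSC and 108, 115 and 110 CPM in CSC, the opposite direction to Ly6a and Ly6c1.

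The machinery that builds and trims the GPI anchor was split, as were all genes tested, with 33.4% called higher and 33.1% lower. Of 32 listed genes 31 were tested, 14 higher, 12 lower and 5 not past the threshold, with a median of -0.04. Pgap1, which encodes the inositol deacylase that acts on new anchors, fell from 141 ± 4.80 to 75.8 ± 3.37 CPM (SD, n = 3 each), and Pigo, an ethanolamine phosphate transferase gene, from 41.4 to 22.03 CPM. Pigp, a subunit gene of the enzyme of the initial step, rose from 3.72 to 7.204 CPM. Gpld1, which encodes a phospholipase that cuts GPI anchors, rose from 6.50 to 11.3 CPM.

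The Cd44 to Cd24a ratio was lower in CSC and the Cd44 to Epcam ratio was higher. The ratios were taken within a library, so they do not depend on scaling between libraries. Cd44 had 5.15, 5.18 and 5.29 counts for each Cd24a count in non-CSC and 4.14, 4.06 and 4.20 in CSC. The groups did not overlap, and the CSC libraries were the lower ones. On the log2 scale the difference was -0.33, from 2.38 ± 0.021 to 2.05 ± 0.025 (SD, n = 3 each). The exact two-sided permutation test gave p = 0.1, the smallest that 20 assignments of 6 libraries allow. Both genes were higher in CSC, Cd24a by the larger factor.

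Against Epcam, Cd44 had 32.1, 31.4 and 33.6 counts per count in non-CSC and 73.5, 76.2 and 76.4 in CSC. The groups again lay apart, now with CSC higher. The log2 difference was 1.22, from 5.02 ± 0.049 to 6.24 ± 0.031 (SD, n = 3 each; exact two-sided permutation p = 0.1, again the smallest possible). Both ratios use counts rather than counts per length, and they describe RNA in pooled cells, not the two-colour profile of single cells that sorting by CD44 and CD24 reads.

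**Figure D3:**
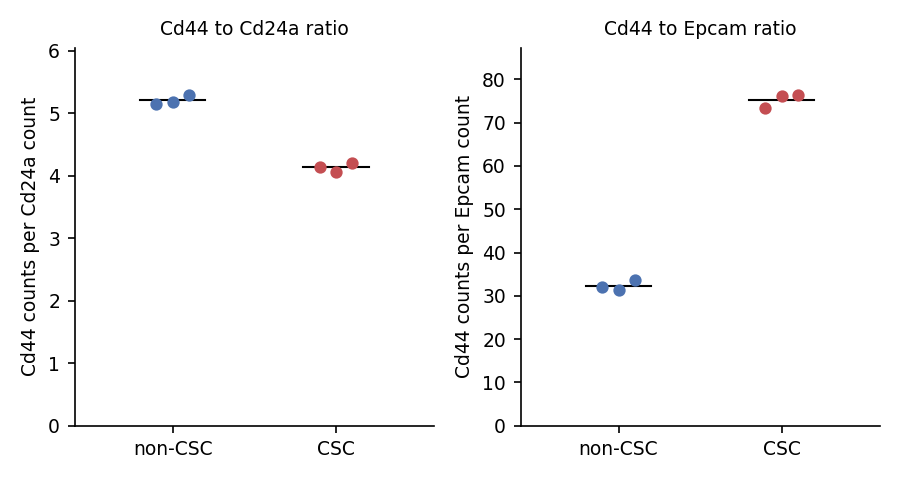
Counts of Cd44 for each count of Cd24a (left) and of Epcam (right) in the 3 non-CSC (blue) and 3 CSC (red) libraries, with a bar at the geometric mean of each group and both axes from 0. The CSC libraries sit at 4.06 to 4.20 on the left, below the non-CSC libraries, and at 73.5 to 76.4 on the right, above them.

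Prom1 and Procr did not move upward in CSC. Prom1, on chromosome 5 at 43993620 to 44102032 (minus strand), had 7, 11 and 5 counts in non-CSC and 6, 5 and 8 counts in CSC. The groups overlapped at 0.227 ± 0.0879 and 0.223 ± 0.0498 CPM (SD, n = 3 each), and the gene did not pass the filter on low counts. A test that kept every gene with a count gave a log2 fold change of -0.04 ± 0.47 (SE; edgeR adjusted p = 0.946), so a difference was not detectable at this depth. Its exons share 424 bases with a gene on the opposite strand, Gm16401.

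Procr, on chromosome 2 at 155751117 to 155755471, read 145, 131 and 128 CPM in non-CSC and 116, 119 and 111 CPM in CSC. Every CSC library was below every non-CSC library, and non-CSC replicate 1 stood above the other libraries of its group. The fall was 1.17-fold, with a log2 fold change of -0.23 ± 0.044 (SE; edgeR adjusted p = 0.000114), and without non-CSC replicate 1, or any other single library, it lay between -0.27 and -0.18.

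The genes of the ligands and co-receptors of Procr were mostly low. Of 14 listed genes of the protein C and coagulation pathway, 8 were tested, 2 higher, 3 lower and 3 not past the threshold, with a median of -0.06. The 2 higher became 1 when any 1 of the 6 libraries was left out. Of all genes tested, 66.5% passed, 33.4% higher and 33.1% lower, so these counts say little about the pathway. Pros1, which encodes the cofactor protein S, rose from 12.3 ± 0.758 to 22.4 ± 1.81 CPM (SD, n = 3 each). S1pr1, a sphingosine-1-phosphate receptor gene, fell from 15.2 to 9.97 CPM, the tissue factor gene F3 from 15.2 to 13.1 CPM, and Gas6, a ligand of TAM receptors, was at 77.4 and 82.5 CPM with an edgeR adjusted p = 0.04. Proc, the gene of protein C itself, fell from 1.83 to 0.860 CPM (edgeR adjusted p = 1.9e-05). Thrombomodulin (Thbd) averaged 0.0679 and 0.0118 CPM and the thrombin receptor gene F2r 0.461 and 0.293 CPM. Proc, Thbd and F2r were chosen after their values were seen.

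The 3 tetraspanin genes took different directions: Tspan8 rose, Cd9 rose less, and Cd151 fell slightly. Tspan8, on chromosome 10 at 115816832 to 115849893, read 179, 176 and 180 CPM in non-CSC and 393, 394 and 397 CPM in CSC. The libraries of a group nearly coincided and the groups lay far apart. The means of 178 ± 1.85 and 395 ± 1.72 CPM (SD, n = 3 each) differed 2.21-fold, with a log2 fold change of 1.15 ± 0.034 (SE; edgeR adjusted p = 2.15e-18), and 9.73% of tested genes changed by more.

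Cd9, on chromosome 6 at 125460266 to 125494791 (minus strand), read 359, 336 and 328 CPM in non-CSC and 494, 516 and 484 CPM in CSC. All CSC libraries were higher. The difference was 1.46-fold, with a log2 fold change of 0.55 ± 0.039 (SE; edgeR adjusted p = 2.07e-11). Gm26728, on the opposite strand, covers 218 of the 2044 exon bases of Cd9 and also read higher in CSC, at 15.1 to 16.1 CPM against 9.54 to 9.97 CPM. Whether counting used strand is not known here, so reads from the shared bases cannot be told apart.

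Cd151, on chromosome 7 at 141467392 to 141471473, read 218, 222 and 222 CPM in non-CSC and 194, 188 and 194 CPM in CSC. All CSC libraries were lower, by a margin that was small beside the level. The fall was 1.15-fold, with a log2 fold change of -0.20 ± 0.034 (SE; edgeR adjusted p = 2.12e-05). Its opposite-strand neighbour Gm10575, which covers 193 of 2741 exon bases, also read lower in CSC, at 10.1 to 11.5 CPM against 14.3 to 14.7 CPM.

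The rest of the tetraspanin family showed the same mixture, as did all genes tested, with 33.4% called higher and 33.1% lower. Of 28 other members 21 were tested, 10 higher, 6 lower and 5 not past the threshold, with a median log2 fold change of 0.07. Only Rom1 rose by at least 2-fold, from 3.61 to 8.38 CPM, and only Cd53 fell by as much, from 12.8 ± 1.53 to 4.78 ± 0.134 CPM (SD, n = 3 each). Tspan15, one of the tetraspanins that escort the protease ADAM10, rose from 47.4 to 70.4 CPM. Tspan5, of the same ADAM10-binding group, fell from 58.8 to 34.4 CPM. Cd81, the closest partner of CD9 in many cells, was chosen after its value was seen and rose from 211 ± 2.72 to 306 ± 6.89 CPM (SD, n = 3 each). Cd63, known from late endosomes and exosomes, was at 547 and 541 CPM, a log2 fold change of -0.01 (edgeR adjusted p = 0.72), and was likewise chosen after its value was seen.

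Partners of tetraspanins at the membrane included larger changes than Cd9 or Cd151 themselves. Of 14 listed, 13 were tested, 7 higher, 5 lower and 1 not past the threshold, with a median of 0.09. Over all genes tested, 33.4% were called higher and 33.1% lower. Calls reached 76.5% among genes with a mean of at least 10 CPM. Some of the laminin-binding integrin genes, whose products bind CD151, diverged. Itga3 and Itgb1, chosen after their values were seen, changed little, with log2 fold changes of 0.099 and -0.195. Itga6 read 1422, 1471 and 1456 CPM in non-CSC and 843, 842 and 855 CPM in CSC, a log2 fold change of -0.78 ± 0.033 (SE; edgeR adjusted p = 1.32e-15). Itgb4, whose product pairs with that of Itga6, was called higher, from 411 ± 19.97 to 616 ± 15.5 CPM, and Itga7 from 16.9 ± 0.528 to 77.9 ± 1.33 CPM (SD, n = 3 each). The alpha and beta chains of the hemidesmosome integrin thus changed in opposite directions at the RNA level. Hbegf, a growth factor gene whose product binds CD9, fell from 169 to 99.96 CPM, while Cd9 rose. The CD9 partner genes Ptgfrn and Igsf8, chosen after their values were seen, had log2 fold changes of -0.34 and -0.24.

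Other surface genes used to sort mammary or tumour stem cells gave no common direction either. Nor did all genes tested, with 33.4% called higher and 33.1% lower. Of 36 listed, 25 were tested, 11 higher, 10 lower and 4 not past the threshold, with a median of 0.06 and a median size of 0.58. Lgr5, the R-spondin receptor gene, read 29.3, 26.2 and 26.7 CPM in non-CSC and 66.9, 66.6 and 67.0 CPM in CSC, with every CSC library well above every non-CSC library. The efflux pump gene Abcg2, known from side population cells, rose from 28.0 ± 1.12 to 61.5 ± 5.48 CPM (SD, n = 3 each). Notch1 fell from 29.7 to 13.1 CPM. Slc3a2, which encodes the CD98 heavy chain, fell from 359 ± 16.2 to 141 ± 4.34 CPM (SD, n = 3 each). Kit, Cxcr4, Cd200 and Dlk1, chosen after their values were seen, had 0 counts in every library.

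**Figure D4:**
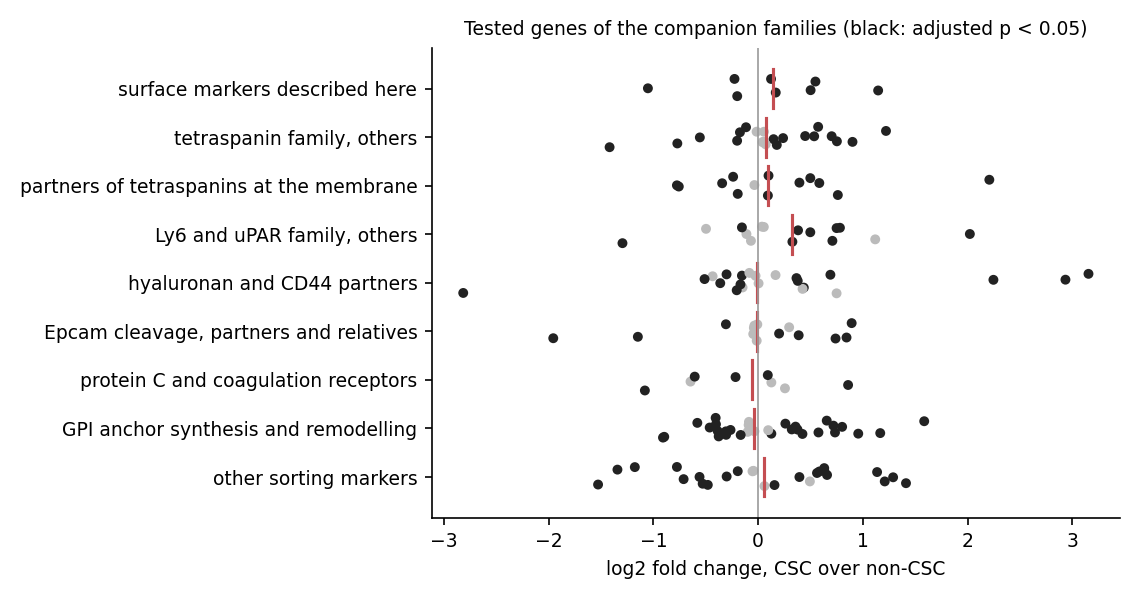
Log2 fold change of CSC over non-CSC for every tested gene of the surface markers and of the 8 companion lists, 1 row per list, with black points at an adjusted p under 0.05, grey points above it and a red bar at the row's median. The medians lie between -0.06 and 0.33, and each row has called genes on both sides of 0. Over all genes tested, 33.4% were called higher and 33.1% lower.

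The change of each gene was set beside that of its neighbours on the chromosome. Epcam was far from the median of its surroundings: the 30 nearest tested genes on chromosome 17 had a median log2 value of -0.01. The flanking gene Calm2 had 0.44, and the lowest of the 30 had -1.17, below Epcam itself. Tspan8 exceeded the median of its surroundings, 0.19, by 0.96, but not every neighbour: the flanking gene A930009A15Rik had 1.19 (edgeR adjusted p = 0.000322) and the highest of the 30 had 5.20. Cd24a, on the same chromosome, exceeded a median of 0.04 by 0.46. Called neighbours among the 30 numbered 13 higher and 5 lower for Tspan8, 11 and 7 for Epcam, and 11 and 4 for Cd24a. Over all genes tested, 33.4% were called higher and 33.1% lower. The surroundings of Cd9 were like those of Tspan8, with 14 of 30 neighbours called higher, 2 lower and a median of 0.22. Cd9 exceeded that median by 0.33, an excess that depends on the number of neighbours, since the median was 0.37 over 10 and 0.08 over 100. For Cd44, Ly6a, Procr and Cd151 the neighbour medians were 0.08, -0.09, 0.10 and 0.05, and those of Ly6a and Procr changed sign with the number of neighbours taken. Gene positions were those of RefSeq on GRCm38.p6, and flanking genes are the nearest tested protein-coding genes on their side.

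**Figure D5:**
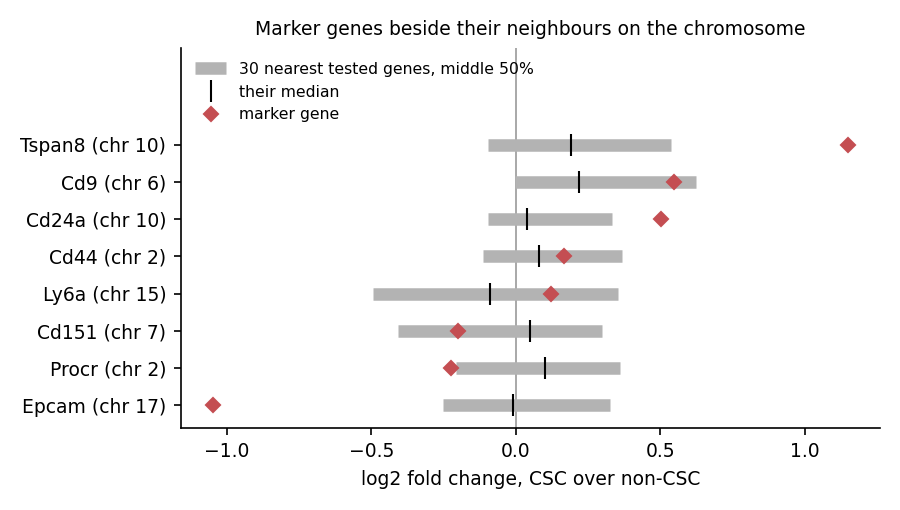
Log2 fold change of each of the 8 tested marker genes (red diamond) beside the span from the lower to the upper quartile (grey bar) and the median (black tick) of its 30 nearest tested genes on the same chromosome. Epcam, Tspan8 and Cd24a lie well outside the grey bars, Procr just below its bar, and Cd44, Ly6a, Cd9 and Cd151 within theirs.

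For the 3 genes with the largest changes, the protein-coding genes with the most similar pattern over the 6 libraries were found among 10030 genes with a mean of at least 5 CPM, by the distance between log2 CPM values centred on each gene's mean. With 2 groups of tight replicates, this measure mainly finds genes with the same size of change. Among the nearest to Tspan8 were Endod1 and Fam43a, at distances of 0.0596 and 0.0730 and log2 fold changes of 1.14 and 1.16. Nearest to Epcam were Bmp7, Polr2a and Pard6b, at 0.0570, 0.0578 and 0.0653. Nearest to Cd9 was another tetraspanin gene, Tspan15, at 0.0520, followed by Nxpe3 and Gnptg at 0.0623 and 0.0642.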

How the data were processed

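The authors deposited unnormalized read counts by gene symbol in 1 table. Per the submitters' processing notes the build was GRCm38. Their aligner, counting tool, annotation, strand setting and filters were not known here. Columns were matched to samples by group word and replicate number. Libraries held 27099879 to 35971131 counts, and replicate pairs differed by more than sampling noise (chi-square per degree of freedom 3.21 to 7.30).

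Counts were filtered with filterByExpr, scaled by TMM and fitted on the whole table with edgeR 4.0.16 (quasi-likelihood, robust, no covariate, R 4.3.3), adjusted by Benjamini-Hochberg, threshold 0.05. A standard error is the log2 fold change divided by the square root of F. CPM uses TMM-scaled library sizes. The ratios added 0.5 to each count. The method was tested on simulated data in which few genes changed, equally up and down. In the real data 66.5% of genes passed, so that test says little about the scaling here. The members and the 12 companion lists (254 entries, 1 matched through another symbol) were chosen with earlier results of these data known. From each list, up to 4 genes were named, those with the largest changes among called genes whose mean reached 5 CPM. Genes outside the rule are marked in the text as picked with their values in view. Some genes that this rule names are not reported here. Lists are described by counts and medians, with no test of the list. A split in both directions is not particular to a list, since 33.4% of all genes tested were called higher and 33.1% lower. Exon lengths, overlaps and 50-base words come from GENCODE M21, and 87.3% of tested genes had a length. The labels give no batch. Alternatives were scaling by RLE, by upper quartile or by library size alone, testing every gene with 1 count, a mean of at least 50 counts, DESeq2 1.42.0, limma-voom (limma 3.58.1), robust off, a replicate block and leaving out each library; for the ratios, other added counts; for the neighbours, 10 or 100 genes.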

Additional observations from a re-analysis of the deposited data

How the results depend on the processing

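Over 15 alternatives the 8 tested genes gave 120 values, all in the direction reported, and 119 also passed the threshold; the exception was Ly6a without CSC replicate 2, with a log2 fold change of 0.076 (over single libraries left out, 0.076 to 0.159). Outside the left-out libraries, Cd44 ranged from 0.14 to 0.23, Tspan8 from 1.12 to 1.21, Epcam from -1.08 to -0.99 and Cd151 from -0.23 to -0.13. The Cd44 to Cd24a difference lay between -0.35 and -0.32 with 1 library left out, and the Cd44 to Epcam difference between 1.20 and 1.25. The same-numbered libraries did not deviate together (r of deviations -0.0257 to -0.0112) and no library correlated best with that of its own number; with the replicate block, 5 of the genes were higher and 3 lower, and 11680 of all genes passed against 11732. Of the list counts 340 stayed within 1.5 times and 20 did not. The EpCAM list's 5 higher became 3 with DESeq2 and ranged from 3 to 4 over left-out libraries. The protein C list's 2 higher became 1 with RLE, no filter and DESeq2, and was 1 without any 1 library. The Ly6 list's 2 lower became 1 with upper-quartile factors and with plain library sizes. The endothelial list's 2 lower became 1 with those scalings, a mean of at least 50 counts and DESeq2, and ranged from 1 to 3 over left-out libraries. With 10 neighbours the medians were 0.27 for Cd44, -0.055 for Epcam, 0.24 for Ly6a, -0.16 for Procr, 0.35 for Tspan8 and 0.37 for Cd9; with 100 they were 0.089 for Cd24a, -0.019 for Ly6a, 0.015 for Procr, 0.063 for Tspan8 and 0.082 for Cd9. Apart from fewer genes or libraries entering a fit, the cause of these shifts was not tested. Depth limits Prom1 and Thy1, and the floor given for a count of 0 covers counting error only.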

Other observations

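A few genes best known from myeloid cells were higher in CSC, while several other leukocyte markers, myeloid ones among them, stayed near 0. Itgam, which encodes the CD11b integrin chain, read 0.797, 0.605 and 0.821 CPM in the non-CSC libraries and 10.5, 10.3 and 9.69 CPM in the CSC libraries, a log2 fold change of 3.77 ± 0.13 (SE; edgeR adjusted p = 1.61e-17). Csf1r, the receptor gene of colony stimulating factor 1, rose from 1.86 to 8.06 CPM, and Cd14 from 20.7 to 30.5 CPM, while Cd68 fell from 25.4 to 17.8 CPM. Ptprc, which encodes the CD45 antigen of all leukocytes, averaged 0.0864 and 0.152 CPM, and Tyrobp, Adgre1 and Itgax had no count in any library. Csf1r was chosen after its value was seen, as were the genes at or near 0.

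Vwf, the neighbour of Cd9 on chromosome 6 and a gene best known from endothelium, rose from 0.899 to 5.46 CPM, a log2 fold change of 2.60, while Pecam1 averaged 0.586 and 0.331 CPM and Tek and Emcn had 0 counts in every library. These genes were chosen after their values were seen.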
